A study of Mus musculus with 8 samples.

Results

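The Carm1-like off-target sites are 8 genomic sites of 20 bases, each differing from the Carm1 target site of a base-editing experiment in mouse embryos at 3 bases. They are all the sites listed as Carm1 off-targets, 8 of the 26 sites in the sequencing table, and they are called sites 1 to 8 here. Genomic DNA was taken from C57BL/6 embryos 19.5 days after microinjection. The wild-type group has 4 libraries, and the edited group has 4 libraries of the genotype H3R17H with Carm1-/-, that is, an arginine-to-histidine change in histone H3 together with loss of Carm1. Both groups share strain and age. The labels do not name the editing enzyme, do not say what, if anything, was injected into the wild-type embryos, and do not say whether each library is 1 embryo or a pool, so p-values measure only the spread between these libraries, which may be technical. Library codes were taken as the initials of the group names (W for wild type, CH for edited).

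Carm1 is an arginine methyltransferase that methylates histone H3. Base editing uses a guide RNA to bring a deaminase to a matching DNA site without a double-strand break, and cytosine base editors change C to T within a short stretch of the bound site, the editing window. A guide can also bind sites that resemble its target, and such sites are sequenced to look for unintended changes. Mismatches near the end next to the protospacer adjacent motif (PAM) usually weaken binding more than those at the far end.

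The sequences below show how far each site departs from the target. In the target site the capitals mark the cytosines at positions 4 to 8, counted from 1 at the first base shown, which is the window used here. In sites 1 to 8 the capitals mark the bases that differ from the target.
Carm1 target site: aggtaCCagccatccttcca
Site 1: agAAaccagccaGccttcca
Site 2: GggCaccagccTtccttcca
Site 3: aggtaccagAcatGcttAca
Site 4: aggAaccagcTatccCtcca
Site 5: CAgtaccagccatccAtcca
Site 6: aTgtaccagccaCccttcTa
Site 7: TggtaccTgccatcctGcca
Site 8: aggtaccagccatccCtcAC
The next sentences name each difference with the target's base first, then the position, then the site's base. Site 1 differs by G3A, T4A and T13G. Site 2 differs by A1G, T4C and A12T, and T4C gives its window 3 cytosines. Site 3 differs by C10A, C14G and C18A, so it has lost 3 cytosines outside the window. Site 4 differs by T4A, C11T and T16C, and site 5 by A1C, G2A and T16A. Site 6 differs by G2T, T13C and C19T, and site 7 by A1T, A8T and T17G. Site 8 differs by T16C, C19A and A20C, all at its last bases.

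All 8 sites keep both cytosines of the target's window, at positions 6 and 7. Of the 24 mismatches, 11 lie at positions 1 to 10 and 13 at positions 11 to 20, and 4 lie within the window. Sites 1, 2, 5 and 7 have 1 mismatch at positions 11 to 20, sites 3, 4 and 6 have 2, and site 8 has 3. Altogether the sites hold 64 cytosines among 160 bases, 17 of them in the window. Chromosome, position and gene context of the sites, and the PAM bases that follow them, are not analysed here.

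Depth was high at all 8 sites. The median depth of a site in a library ran from 225080 to 928965 reads with a base call, and no single position fell below 189141. The reference base was the commonest base on every line of the 8 sites. At the Carm1 target itself, the mean C-to-T share of positions 6 and 7 was 0.0276% ± 0.0193 (SD, n = 4) in wild-type and 99.8% ± 0.194 (SD, n = 4) in edited libraries. One edited library, replicate 4, stood apart from the other 3 in several measures, so results are given with and without it where it matters.

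The main comparison asked whether the window cytosines of these look-alike sites carried more thymine in edited than in wild-type embryos. No rise was detectable when the 8 sites were averaged. The mean C-to-T share of the window was 0.0108%, 0.00968%, 0.0109% and 0.0103% in wild-type replicates 1 to 4, and 0.0106%, 0.0106%, 0.0106% and 0.0126% in edited replicates 1 to 4. The groups overlapped, and 3 of the 4 edited libraries lay inside the wild-type range. The means were 0.0104% ± 0.000559 (SD, n = 4) and 0.0111% ± 0.000983 (SD, n = 4), a difference of 0.000665 percentage points, with an interval from -0.000346 to 0.00289 (exact two-sided permutation test, p = 0.371). Without edited replicate 4 the difference was 0.000174 points (exact permutation p = 0.743). The mean edited share at the Carm1 target was 3798 times the highest window share of any of the 8 sites in any library, which was 0.0263%.

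The other cytosines of the same sites served as an internal background. Their C-to-T share was 0.0131% ± 0.000323 (SD, n = 4) in wild-type and 0.0147% ± 0.00273 (SD, n = 4) in edited libraries (exact permutation p = 0.229), with edited replicate 4 at 0.0188%. The window thus lay below the other cytosines in both groups, with a window-minus-other difference of -0.00267 points in wild-type and -0.00366 points in edited libraries. The difference between those gaps was -0.000986 points, with an interval from -0.00409 to 0.00107 (exact permutation p = 0.429), and it was -0.000132 points without edited replicate 4.

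Among single sites, 4 had a higher and 4 a lower window share in edited libraries on the log2 odds scale. limma with Benjamini-Hochberg adjustment called 0 of the 8 sites, and 1 (site 4) had an unadjusted p under 0.05. Over all 25 sites fitted, which include the target sites, 44% were called. The exact permutation test adjusted over the 15 off-target sites with a window cytosine called 0% of them, but with a smallest p of 0.0286 a single site cannot pass that adjustment, so its count says nothing about a rise. The median log2 difference of the 8 sites was 0.01. The widest interval of any site reached 0.0152 points, at site 6.

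Site 4 came closest to a rise. Its window share was 0.00891%, 0.00685%, 0.00838% and 0.00765% in wild-type replicates 1 to 4, and 0.0111%, 0.0112%, 0.0137% and 0.00801% in edited replicates 1 to 4. Edited replicates 1 to 3 were above all wild-type libraries, and edited replicate 4 lay among them. The means were 0.00795% ± 0.000897 and 0.0110% ± 0.00232 (SD, n = 4 each), a difference of 0.00306 points with an interval from -0.000902 to 0.00683 (exact permutation p = 0.0857, adjusted 0.429; limma log2 difference 0.44, SE 0.19, adjusted p = 0.0872). Without edited replicate 4 the difference was 0.00405 points, and limma then called the site (log2 difference 0.58, adjusted p = 0.0189). That was the lowest value with 1 library left out, and the limma adjusted p reached 0.220 in such fits. These shares rest on 271 T reads of 3409893 base calls in wild-type and 442 of 3988990 in edited libraries, the 2 window cytosines and 4 libraries of each group summed.

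Site 8, with all its mismatches at the last 5 bases, had the next largest upward difference. The wild-type libraries stood at 0.009998%, 0.0114%, 0.0149% and 0.0107%, and the edited libraries at 0.0145%, 0.0134%, 0.0136% and 0.0162%. Wild-type replicate 3 lay within the edited range, and the other 3 wild-type libraries lay below it. The means were 0.0117% ± 0.00216 and 0.0144% ± 0.00126 (SD, n = 4 each), a difference of 0.00268 points with an interval from -0.00142 to 0.00617 (exact permutation p = 0.114, adjusted 0.429; limma log2 difference 0.32, SE 0.16, adjusted p = 0.143). Without wild-type replicate 3 the difference was 0.00372 points and limma called the site (log2 difference 0.43, adjusted p = 0.0243). That was the lowest value with 1 library left out, and the limma adjusted p reached 0.317 in such fits.

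Site 6 was set apart by 1 library. Its wild-type shares were 0.0111%, 0.0141%, 0.0149% and 0.0145%, and its edited shares were 0.0111%, 0.0146%, 0.0125% and 0.0263%. Edited replicate 4 was the highest of the 8 libraries, and the other 3 edited libraries lay within or just below the wild-type range. The difference of 0.00246 points (interval -0.00384 to 0.0152, exact permutation p = 0.743) became -0.000928 points without edited replicate 4.

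At the remaining 5 sites the groups overlapped and the differences were small. Site 1, with a mismatch at the first window position (T4A), had 0.0107%, 0.00833%, 0.0108% and 0.00822% in wild-type and 0.00923%, 0.00982%, 0.00732% and 0.00955% in edited libraries (difference -0.000535 points, interval -0.00352 to 0.00159, exact permutation p = 0.571). Site 2, the only one with 3 window cytosines, had 0.0107%, 0.00939%, 0.0122% and 0.00951% in wild-type and 0.0104%, 0.0110%, 0.00949% and 0.0118% in edited libraries (difference 0.000222 points, interval -0.00268 to 0.00244, exact permutation p = 0.886). The edited libraries of site 2 lay inside the wild-type range, and those of site 1 did so except for the lowest, replicate 3. Site 3 had 0.0131%, 0.00974%, 0.00935% and 0.0111% in wild-type and 0.0118%, 0.0104%, 0.0111% and 0.00918% in edited libraries (difference -0.00022 points, interval -0.00397 to 0.00248, exact permutation p = 0.8286).

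Site 5 had the widest wild-type spread. It had 0.0163%, 0.0120%, 0.00996% and 0.0122% in wild-type and 0.00991%, 0.00938%, 0.0106% and 0.0128% in edited libraries (difference -0.00192 points, interval -0.00688 to 0.00282, exact permutation p = 0.286). Leaving out edited replicate 4 made this difference -0.00262 points. The highest value of site 5 was in a wild-type library. Site 7 had the lowest window share of the 8 sites in both groups, with 0.00554%, 0.00566%, 0.00683% and 0.00861% in wild-type and 0.00650%, 0.00494%, 0.00678% and 0.00672% in edited libraries (difference -0.00042 points, interval -0.00367 to 0.00125, exact permutation p = 0.686). Sites 1, 2, 4 and 7 each have 1 mismatch inside the window. That of site 7, A8T, is next to the cytosine at position 7, and the others are at position 4. Whether these mismatches relate to the window shares was not tested.

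Counting error was of the same order as the spread between libraries. The Wilson 95% interval of a window share in 1 library had a half-width of at most 0.00366 percentage points, the fewest T reads in a library was 48, and a count of 0 would have allowed up to 0.00159%. PCR and sequencing error also give thymine reads, and wild-type libraries measure that background together with any real change.

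Off-target sites resembling the H3 targets, the other sites edited in these embryos, were sequenced in the same libraries. Their mean window share was 0.0223% in wild-type and 0.0226% in edited libraries. The edited-minus-wild-type difference of the Carm1-like sites exceeded that of the H3-like sites by 0.000345 points (exact permutation p = 0.771).

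Among single cytosines, limma called none of the 17 in the window (1 at an unadjusted p under 0.05), and 11 were higher and 6 lower in edited libraries. Over all 210 cytosines of the series, 154 were higher and 56 lower. Shares of single window cytosines in single libraries ran from 0.00303% to 0.0293%. One window cytosine, position 6 of site 8, had edited libraries that were all above the wild-type libraries, against a background of 12.4% of all 210 cytosines, target cytosines included. Its C6T share was 0.00782%, 0.00773%, 0.0104% and 0.00861% in wild-type and 0.0154%, 0.0114%, 0.0108% and 0.0143% in edited libraries. The means were 0.00863% ± 0.00122 and 0.0130% ± 0.00224 (SD, n = 4 each; interval of the difference 0.000399 to 0.00767; exact permutation p = 0.0286, the smallest 4 against 4 libraries allow). It did not pass the limma test (log2 difference 0.58, SE 0.17, adjusted p = 0.0931), whose adjusted p was 0.0705 to 0.243 with 1 library left out.

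Position 7 of site 4 was the other window cytosine with a sizeable difference. Its C7T share was 0.0105%, 0.00857%, 0.00909% and 0.00756% in wild-type and 0.0150%, 0.0156%, 0.0193% and 0.00745% in edited libraries. Edited replicates 1 to 3 stood above all wild-type libraries, while edited replicate 4 was the lowest of the 8. At position 6 of the same site the C6T means were 0.00698% and 0.00768%. At position 7 the log2 difference was 0.60 (SE 0.30, limma adjusted p = 0.459), and 0.89 without edited replicate 4 (limma adjusted p = 0.0186). That was the lowest value with 1 library left out, and the limma adjusted p reached 0.684 in such fits. At position 6 and 7 averaged over the 8 sites, the shares were 0.00884% and 0.0115% in wild-type and 0.00989% and 0.0119% in edited libraries. The cytosine at position 7 was above that at position 6 at 8 of 8 sites in wild-type and at 6 of 8 sites in edited libraries.

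Of all 64 cytosines of the sites, 1 was called by limma (3 at an unadjusted p under 0.05), against 10% of all 210 cytosines. Across the 64 the direction was mostly up, with 45 higher and 19 lower in edited libraries, and the median log2 difference was 0.09, beside 0.13 over all cytosines. The cytosine called had fallen, and it was the only one called lower in the whole table (0.476% of 210). It was position 16 of site 4, the cytosine that site 4 has in place of the target's thymine (T16C). Its C16T share was 0.0109%, 0.00988%, 0.00992% and 0.0109% in wild-type and 0.00482%, 0.00658%, 0.00756% and 0.00586% in edited libraries. All edited libraries lay below all wild-type libraries, with means of 0.0104% ± 0.000592 and 0.00621% ± 0.00116 (SD, n = 4 each; limma log2 difference -0.75, SE 0.15, adjusted p = 0.0201). Fits lacking 1 wild-type library lost the call in each case (limma adjusted p 0.0526 to 0.0677), and fits lacking 1 edited library kept it.

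The other cytosines with the largest differences outside the window did not pass limma. At position 14 of site 7 the mean C-to-T share was 0.00503% in wild-type and 0.00707% in edited libraries (adjusted p = 0.246), and at position 18 of site 2 it was 0.00833% and 0.00645% (adjusted p = 0.400). At position 10 of site 5 the means were 0.0273% and 0.0408%, with edited replicate 4 at 0.0689%. At position 14 of site 8 they were 0.0176% and 0.0248%, with edited replicate 4 at 0.0432%. In the last 2 the difference came with that library standing high.

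The cytosine at position 10, kept by 7 of the 8 sites and lost by C10A at site 3, showed how unequal the background of the sites was. In wild-type libraries its mean C-to-T share was 0.0446% at site 1, 0.0322% at site 8, 0.0273% at site 5, 0.0205% at site 7, 0.0115% at site 6, 0.00900% at site 2 and 0.00760% at site 4. Averaged over the 7 sites it was 0.0218% ± 0.00174 in wild-type and 0.0287% ± 0.0117 in edited libraries (SD, n = 4 each; exact permutation p = 0.286). Edited replicate 4 stood at 0.0461% and the other edited libraries at 0.0213% to 0.0240%. Without it the difference was 0.00107 points (exact permutation p = 0.457). The high values of edited replicate 4 were 0.0944% at site 8, 0.0838% at site 1, 0.0689% at site 5 and 0.0382% at site 7. At the same position of the Carm1 target the share was 0.0710% in wild-type and 0.185% in edited libraries (exact permutation p = 0.0286).

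The guanine at position 9, shared by all 8 sites, had the highest wild-type share of wrong bases of any position when the sites were averaged. The G9A share in wild-type libraries averaged 0.191% at site 6, 0.166% at site 1, 0.129% at site 7, 0.115% at site 8, 0.0495% at site 2, 0.0446% at site 4, 0.0414% at site 5 and 0.0127% at site 3. Site 3, the lowest, is the only one in which the next base is not a cytosine. Averaged over the sites the share was 0.0936% in wild-type and 0.0973% in edited libraries (exact permutation p = 0.657). At site 5 all edited libraries lay above all wild-type libraries, with an edited mean of 0.0517% (exact permutation p = 0.0286), and at site 8 the edited mean was 0.135% (exact permutation p = 0.0571). The other sites had p of 0.486 or more in the exact permutation test. At the Carm1 target, by contrast, G9A was 0.104% ± 0.0243 in wild-type and 0.0266% ± 0.00408 in edited libraries (SD, n = 4 each; exact permutation p = 0.0286). The gap between the 8 sites and the target grew by 0.0813 points in edited libraries (exact permutation p = 0.0286), nearly all of it at the target. This measure was chosen after its values were seen.

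The mean wild-type background of cytosines differed by neighbouring base, with overlapping ranges. Means of single cytosines ran from 0.00760% to 0.0446% after a guanine and from 0.00407% to 0.0183% after a thymine. Over the cytosines with a neighbour inside the site, the mean wild-type C-to-T share was 0.0187% after a guanine (11 cytosines, 7 of them at position 10), 0.0115% after a cytosine (29), 0.0104% after an adenine (12) and 0.00925% after a thymine (11). By the following base it was 0.0139% before an adenine (23), 0.0134% before a cytosine (29) and 0.00761% before a thymine (11). The cytosines after a guanine averaged 0.0218% at position 10 and 0.0134% at the other positions. These are descriptions over cytosines that share libraries and amplicons, and no test was made. The sites share most of their sequence, so neighbouring base and position cannot be told apart here.

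All 12 base changes were then compared, to place C-to-T among the errors of the same reads. After adjustment over the 12, the exact permutation test called 0%, but a single change cannot pass that adjustment with 4 libraries a group, so the values are given as a description with unadjusted p. G-to-A was the commonest change, at a mean of 0.0414% over the guanine positions in wild-type and 0.0432% in edited libraries (difference 0.00183 points, exact permutation p = 0.429). Position 9, with a wild-type G9A mean of 0.0936%, supplies 8 of those 25 positions, and the rank without it was not computed. With reads summed over positions, so that deeper sites weigh more, the G-to-A difference was 0.00392 points (exact permutation p = 0.0286). The unsummed difference was 0.000299 points without wild-type replicate 4 (p = 0.886, exact permutation). Libraries were not left out of the summed version. C-to-G was the rarest change, at 0.00241% and 0.00242%. C-to-T over all cytosines was 0.0126% ± 0.000354 in wild-type and 0.0141% ± 0.00249 in edited libraries (SD, n = 4 each; exact permutation p = 0.2). Edited replicate 4 had 0.0178%, and without it the difference was 0.000268 points. The same library was also high for A-to-G, at 0.0183%, and T-to-C, at 0.0201%, where the wild-type means were 0.0134% and 0.0161%. Its excess was thus not limited to cytosines. At the window cytosines, C-to-A was 0.0125% and 0.0131% (exact permutation p = 0.857) and C-to-G 0.00188% and 0.00181% (exact permutation p = 0.171) in wild-type and edited libraries.

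Counting any base change, limma called 0 of the 160 positions (5 at an unadjusted p under 0.05), against 4.42% of all 520 positions, 0.385% being called lower. Of the 160, 118 were higher and 42 lower in edited libraries, beside 338 higher and 182 lower of all 520. The median log2 difference was 0.07 in both sets. At 3 positions the edited libraries lay above all wild-type libraries (5.96% of all positions did) and at 2 below them (0.962%). Edited replicate 4 was the highest of the 8 libraries at 57 of the 160 positions, at 22 of the 47 cytosines outside the window and at 4 of the 17 in it. Among the 5 non-cytosine positions with the largest log2 difference, position 12 of site 2 was lower in edited libraries, with 0.0445% in wild-type and 0.0344% in edited libraries (limma log2 difference -0.37, adjusted p = 0.0975). That fall includes the change to the target's base described below, so it is not a separate result. The others, position 1 of sites 1, 3 and 8 and position 8 of site 8, were higher in edited libraries with overlapping groups (limma adjusted p 0.637 or more).

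The last comparison followed the mismatches themselves, that is, how often a read of an off-target site carried the target's base where the site differs. It was chosen after values had been seen. The mean share over the 24 mismatches was 0.0120%, 0.0129%, 0.0120% and 0.0130% in wild-type and 0.0105%, 0.00967%, 0.0113% and 0.0113% in edited libraries. All edited libraries lay below all wild-type libraries. The means were 0.0125% ± 0.000527 and 0.0107% ± 0.000763 (SD, n = 4 each), a difference of -0.00182 points with an interval from -0.0033 to -0.000762 (exact permutation p = 0.0286). The other 2 wrong bases at the same positions were at 0.0119% in wild-type and 0.0130% in edited libraries (exact permutation p = 0.229). Edited replicate 4 stood at 0.0152%, and without it the edited mean was 0.0122% (difference 0.000293 points, exact permutation p = 0.429). The target's base minus the other bases changed by -0.00287 points (exact permutation p = 0.0286), and by -0.00231 points without edited replicate 4.

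The single mismatches were divided in direction. Of the 24, 13 were lower and 11 higher in edited libraries, and 3 had no overlap between groups, all lower. Over all 1560 substitutions, 1.41% lay wholly lower and 3.78% wholly higher. With reads summed over the mismatches the difference was -0.00121 points (exact permutation p = 0.114). The 13 mismatches at positions 11 to 20 had 0.0141% in wild-type and 0.0113% in edited libraries (exact permutation p = 0.0286). That stretch holds all 3 mismatches without overlap, at position 12 of site 2 and position 16 of sites 4 and 5. Whether the stretches differ was not tested. The 11 at positions 1 to 10 had 0.0106% and 0.00993% (exact permutation p = 0.229, and 0.0286 without edited replicate 4). Both stretches held slightly more lower than higher mismatches, 7 of 13 and 6 of 11. Of all 480 substitutions of the 8 sites, 179 were lower and 301 higher, and of all 1560, 633 were lower and 927 higher. The difference between these shares was not tested.

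The largest of the 3 was T12A of site 2, written with the site's base first and the read's base last, where the read's base is the target's. Its share was 0.0204%, 0.0217%, 0.0194% and 0.0212% in wild-type and 0.0104%, 0.00702%, 0.00960% and 0.0105% in edited libraries. The wild-type mean was 2.20 times the edited mean, 0.0207% ± 0.00099 against 0.00938% ± 0.00163 (SD, n = 4 each), from 384 of 1854117 reads and 149 of 1605426 reads. In a limma fit over all substitutions its log2 difference was -1.15 (SE 0.16, adjusted p = 0.0172), and it was the only one of the 480 substitutions of the sites to be called, with 12 at an unadjusted p under 0.05 and 0.897% called over the table. The call was lost in each fit lacking 1 wild-type library (limma adjusted p 0.0554 without replicate 1, 0.0738 without replicate 2, 0.0603 without replicate 3 and 0.0767 without replicate 4) and without edited replicate 3 (0.0628). In the fit without wild-type replicate 2 another substitution of the sites was called instead, T13G of site 8 (log2 difference 1.30, limma adjusted p = 0.0483), which had an adjusted p of 0.478 with all libraries and was named after its value was seen.

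A16T of site 5 was next. Its share was 0.0248%, 0.0306%, 0.0326% and 0.0244% in wild-type and 0.0188%, 0.0140%, 0.0146% and 0.0184% in edited libraries. The means, 0.0281% ± 0.00414 and 0.0164% ± 0.00247 (SD, n = 4 each), differed 1.71-fold without passing limma (log2 difference -0.77, SE 0.17, adjusted p = 0.140), from 462 of 1654736 reads and 413 of 2459234 reads. The last was C16T of site 4, described above, which differed 1.68-fold and had a limma adjusted p of 0.122 among all substitutions. Some other mismatches had lower edited means with overlapping groups. G13T of site 1 had 0.0282% and 0.0227%, and T8A of site 7 had 0.0280% and 0.0223% (exact permutation p = 0.0857 each). C16T of site 8 went the other way, with 0.00783% in wild-type and 0.00967% in edited libraries (exact permutation p = 0.229).

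Sites 4 and 8 share the mismatch T16C, and their C16T shares thus differed in direction. A read carrying the target's base at all 3 mismatches cannot be commoner than the rarest of the 3. That limit, taken in each library at the site where it was highest in that library, averaged 0.0125% in wild-type and 0.0127% in edited libraries. The mean share of the target's base over the 32 mismatches of the H3-like sites, the counterpart of the mean over the 24, was 0.0102% and 0.010002% (exact permutation p = 0.686). The difference between the Carm1-like and H3-like changes was -0.00162 points (exact permutation p = 0.0857, and 0.0286 without edited replicate 4).

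Read depth was nearly level across each site. Depth at window cytosines divided by depth at positions 1 and 20 was 0.986 in wild-type and 0.985 in edited libraries (difference -0.000959, exact permutation p = 0.171). Single sites ranged from 0.906 to 1.07. Insertions and deletions are not analysed here.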

How the data were processed

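Genomic DNA of mouse embryos was amplified, and the PCR products were sequenced as Illumina libraries, per the labels' protocols; Bowtie 0.12.2 and the builds mm8 and mm10 are named without a role in the submitters' processing notes, and the sources used here do not say how reads were filtered and assigned. Each deposited line holds a count of reads with a base call and the percent with A, C, G and T, as the authors gave them; each percent times its count lay within 0.01 of a whole read. Library names were matched to the labels by initials and number. Means were compared by exact two-sided permutation over 70 splits of 8 libraries (smallest p 0.0286). Intervals span all edited-minus-wild-type differences between single libraries, from the smallest to the largest. limma 3.58.1 (R 4.3.3) was fitted on log2 odds with a pseudocount of 0.5 reads to all sites, cytosines, positions or substitutions of the table, with Benjamini-Hochberg adjustment at 0.05, and the code was tested on simulated data. Other steps used Python 3.11.15 with numpy 2.4.6 and pandas 2.3.3. A minimum depth of 100 reads removed nothing. No pair of replicates looked like 1 library deposited again (chi-square over degrees of freedom of at least 8664 between their depths), so each library counted as 1 replicate. Same-numbered wild-type and edited libraries did not deviate together over the 64 cytosines of the 8 sites (correlations of -0.26 to 0.03). The labels state no pairing beyond the number, and such correlations cannot exclude one, so libraries were treated as unpaired. All 8 sites, each cytosine at positions 4 to 8, the 5 other cytosines and 5 other positions with the largest log2 difference, and members past the limma threshold could be named. Sites and lists were chosen with earlier results of these data known; the mismatch, substitution, position 9 and position 10 measures were chosen after seeing the values. Alternatives were the window, summing, pseudocount, depth minimum, sites fitted, array weights, each library left out and the replicate number as a block. Wilson intervals and floors cover counting error only, because PCR reads without molecular identifiers are not independent molecules.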

Additional observations from a re-analysis of the deposited data

Results flagged for a closer look

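In 8 of the 54 groups of 4 libraries checked over the sites, 1 library lay apart from the other 3 by more than Dixon's 95% critical value for its gap over the group's range. Chance gives about 1 in 20 groups, and the measures overlap. Edited replicate 4 was the library apart in 5 of the 8. Its mean window C-to-T share of the 8 sites was 0.0126%, against 0.0106% in each of the other edited libraries. Its C-to-T share at position 10 of 7 sites was 0.0461%, against 0.0213% to 0.0240%. Over all positions of the 8 sites it had 0.0178% C-to-T (others 0.0125% to 0.0133%), 0.0183% A-to-G (others 0.0134% to 0.0137%) and 0.0201% T-to-C (others 0.0156% to 0.0162%). Edited replicate 2 was low for the window of site 7, at 0.00494% (others 0.00650% to 0.00678%), and high for G-to-A over the sites, at 0.0450% (others 0.0425% to 0.0428%). Wild-type replicate 3 was low for G-to-C, at 0.00387% (others 0.00442% to 0.00446%). What sets these libraries apart was not tested.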

How the results depend on the processing

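The difference at the 24 mismatches stayed negative in all alternatives run. It ran from -0.00203 to -0.00149 points with 1 library left out (exact permutation p 0.0286 each, the smallest 35 splits were able to give here). All edited libraries lay below all wild-type libraries, so leaving out 1 could not make the groups overlap, and these p-values add no support. The difference did not pass the threshold with reads summed (-0.00121, exact permutation p = 0.114). Nor did it pass without the 3 mismatches whose groups did not overlap (-0.000792, exact permutation p = 0.171, a smaller difference by construction). It also did not pass with the replicate number as a block (-0.00182, exact permutation p = 0.125, the smallest that 16 arrangements allow). The limma count of sites called rose from 0 to 1 with array weights (site 4, adjusted p = 0.0481) and ran from 0 to 1 with 1 library left out. The count of cytosines fell from 1 to 0 with only the off-target sites fitted and with the replicate block, and ran from 0 to 2 with 1 library left out. The count of substitutions fell from 1 to 0 with the replicate block and ran from 0 to 1. Deviations gave no sign that the numbers pair the samples (correlations 0.03, -0.13, -0.26 and -0.08), which cannot exclude pairing. The block changed no other call. The cause of these changes was not tested. Among the recomputed values that answer a comparison, 107 kept their direction and side of the threshold or, for counts, lay within 1.5 times. Of the rest, 15 counts moved further and 3 values lost the threshold. Part of the 107 could not have differed, so the tally does not measure robustness. At the Carm1-like sites a window of positions 3 to 9 adds no cytosine, and a minimum of 10000 reads removes no position. A single site or base change cannot pass the adjusted permutation test, so those counts could hardly leave 0. The mismatch differences with 1 library left out were bound to stay negative, as said above. At the read depths of the Carm1-like sites, counting error left a window share in 1 library uncertain by up to 0.00366 points (95% Wilson half-width).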
